A study of Mus musculus with 24 samples.

Results

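The promoter regions of protein-coding genes in bone marrow-derived macrophages were taken from ATAC-seq peak lists. ATAC-seq marks accessible chromatin by where a transposase can insert sequencing adapters. Overlapping peaks within each list were collapsed, lists under 5000 peaks were left out, and the 11000 peaks with the best score were kept per list. The 22 kept lists were then merged wherever peaks shared a base. A merged region was counted as a promoter region when its centre lay within 1 kb of an annotated start of a protein-coding transcript. This gave 11364 promoter regions of 29802 regions in all (38.1%), next to the start of 9742 of 21924 annotated protein-coding genes (44.4%).

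The cells came from male mice of postnatal day 28, 4 of the strain C57BL6/J and 4 of BTBR T+ Itpr3tf/J, and were differentiated from bone marrow for 7 days. Each animal gave cells for 3 conditions: media alone, lipopolysaccharide (LPS, a bacterial cell wall product, 100 ng/ml) for 24 h (LPSx1), and LPS for 4 h followed by a wash, a night of rest and 24 h of LPS (LPSx2). The media and LPSx2 lists of C57BL6/J animal 6 were under the minimum, which left 7 media, 8 LPSx1 and 7 LPSx2 libraries. Each library is labelled with a biological replicate number, and libraries with the same number were taken as the cells of 1 animal. Animals 1 and 2 shared sequencing lane 1, animals 3 and 4 lane 2, animals 5 and 6 lane 3, and animals 7 and 8 lane 4.

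A promoter is the stretch around a transcription start site where general transcription factors and RNA polymerase II assemble. Most housekeeping genes start from CpG islands, which stay free of nucleosomes in many cell types and often hold GC boxes bound by SP and KLF factors and CCAAT boxes bound by NF-Y. Many tissue-specific and inducible genes start from CpG-poor promoters, and in macrophages LPS acts on them through Toll-like receptor 4, NF-kB, AP-1 and interferon-induced factors.

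Sequences of promoter regions that the results turn on are given from the mm10 genome in the direction of transcription. Each is the window of the region's best peak, without bases of annotated exons, and capitals mark matches to the motifs searched on both strands. Regions of Adam3 (chr8:24725853-24726047, minus strand), Slc6a12 (chr6:121343186-121343386, plus strand), Camp (chr9:109849629-109849829, minus strand) and Slc31a2 (chr4:62291239-62291439, plus strand) are shown because they were absent or weak in media and strong after LPS. The capitals are an AP-1 site in Adam3, a C/EBP site in Camp, and a CCAAT box and a PU.1 site in Slc31a2, and the window of Slc6a12 holds none of the 14 motifs searched.
Adam3: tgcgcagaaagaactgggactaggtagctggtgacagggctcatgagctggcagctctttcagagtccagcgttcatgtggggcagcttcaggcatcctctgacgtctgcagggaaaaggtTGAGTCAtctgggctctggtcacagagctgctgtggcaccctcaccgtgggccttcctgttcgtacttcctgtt
Slc6a12: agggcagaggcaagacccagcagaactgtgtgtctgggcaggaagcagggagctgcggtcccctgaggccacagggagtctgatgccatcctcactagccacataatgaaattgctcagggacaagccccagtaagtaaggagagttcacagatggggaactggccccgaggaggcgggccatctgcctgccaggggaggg
Camp: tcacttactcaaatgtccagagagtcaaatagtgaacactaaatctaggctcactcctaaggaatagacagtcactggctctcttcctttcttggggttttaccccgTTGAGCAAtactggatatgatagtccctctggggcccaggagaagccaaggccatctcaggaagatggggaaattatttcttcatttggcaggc
Slc31a2: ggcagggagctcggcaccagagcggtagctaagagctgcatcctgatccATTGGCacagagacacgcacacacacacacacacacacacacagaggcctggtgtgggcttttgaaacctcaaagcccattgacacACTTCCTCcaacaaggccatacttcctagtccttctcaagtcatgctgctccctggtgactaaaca

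Regions of Jund (chr8:70698771-70698948, plus strand), Braf (chr6:39725464-39725637, minus strand) and Ubap1 (chr4:41348803-41348995, plus strand) are shown because they were strong in media and weak or absent after LPS. The capitals in Jund are 3 GC boxes, a CCAAT box and a C/EBP match, those in Braf are 2 CREB/ATF sites and a GC box, and that in Ubap1 is a GC box.
Jund: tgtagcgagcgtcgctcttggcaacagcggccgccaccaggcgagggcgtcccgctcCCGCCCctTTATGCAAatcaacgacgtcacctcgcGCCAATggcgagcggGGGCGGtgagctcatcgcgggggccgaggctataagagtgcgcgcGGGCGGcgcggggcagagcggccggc
Braf: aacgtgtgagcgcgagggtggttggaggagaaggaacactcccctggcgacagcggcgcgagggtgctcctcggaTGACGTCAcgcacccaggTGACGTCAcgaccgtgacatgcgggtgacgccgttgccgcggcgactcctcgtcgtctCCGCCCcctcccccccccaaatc
Ubap1: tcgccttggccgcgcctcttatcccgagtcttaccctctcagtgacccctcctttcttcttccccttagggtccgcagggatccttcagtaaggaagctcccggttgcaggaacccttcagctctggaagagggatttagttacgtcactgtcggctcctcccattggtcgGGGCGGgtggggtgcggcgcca

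Pja2 (chr17:64332002-64332202, minus strand) and Leprot (chr4:101647339-101647539, plus strand) are among the strongest regions of all libraries, and their capitals are GC boxes and, in Pja2, 2 CCAAT boxes.
Pja2: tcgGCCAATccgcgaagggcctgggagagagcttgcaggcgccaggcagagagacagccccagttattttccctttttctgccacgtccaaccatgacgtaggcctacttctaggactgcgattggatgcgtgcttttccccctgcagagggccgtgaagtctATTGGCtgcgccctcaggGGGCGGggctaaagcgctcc
Leprot: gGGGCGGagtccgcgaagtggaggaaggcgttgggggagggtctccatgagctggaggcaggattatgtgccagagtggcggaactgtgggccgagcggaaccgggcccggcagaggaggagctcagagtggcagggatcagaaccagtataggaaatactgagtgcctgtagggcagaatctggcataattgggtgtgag

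Zmym5 (chr14:56811717-56811823, minus strand) and Ifi204 (chr1:173766961-173767161, minus strand) differed between the strains. The capitals are GC and CCAAT boxes in Zmym5 and an interferon response element core in Ifi204.
Zmym5: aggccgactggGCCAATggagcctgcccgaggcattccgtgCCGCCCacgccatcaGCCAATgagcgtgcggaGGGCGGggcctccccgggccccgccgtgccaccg
Ifi204: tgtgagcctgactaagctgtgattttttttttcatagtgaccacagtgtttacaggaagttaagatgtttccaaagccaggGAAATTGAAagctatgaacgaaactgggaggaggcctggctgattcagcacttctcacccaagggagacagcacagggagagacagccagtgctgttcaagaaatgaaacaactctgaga

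Promoter regions were more widely shared among libraries than the other 18438 regions. A promoter region was detected in a median of 9 of 22 libraries against 4 for other regions. All 22 libraries held 1841 promoter regions (16.2%), against 498 other regions (2.70%). The median width was 281 bp for promoter regions and 248 bp for the others. Within each library, peaks were ranked by the authors' score, and the rank was expressed as a rank score from 100 (the strongest of the 11000) to 0 (not detected). Here and below, not detected, absent, gained and lost refer only to the 11000 peaks kept per list. A region at 0 may still hold a weaker peak below that cut. Where detected, promoter regions had a median rank score of 59.5 and other regions 40.9.

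Sequence set promoter regions apart from other accessible regions. By the ratio of observed to expected CpG in 500 bp around the centre, 6429 promoter regions (56.6%) were CpG-rich (ratio above 0.75 and GC above 55%), 3455 (30.4%) intermediate and 1480 (13.0%) CpG-poor (ratio under 0.48). Of the other regions, 91.2% were CpG-poor. The CpG-poor promoters were seldom constant: 58 (3.92%) were detected in all 22 libraries, against 1157 of the CpG-rich (18.0%) and 626 of the intermediate (18.1%).

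The strongest promoter signal lay just upstream of the start. The centre of a promoter region lay at a median of -34.5 bp from the start, negative being upstream (lower quartile -92 bp, upper quartile 12 bp), 69.5% of centres were upstream, and 77.8% were within 200 bp. The 5292 regions centred 0 to 100 bp upstream were detected in a median of 10 libraries, with a mean rank score of 27.5. The 1368 regions centred 100 to 200 bp upstream were detected in a median of 19 libraries with a mean rank score of 44.5, and the 351 regions a further 100 bp upstream in 14 libraries with 39.5. On the downstream side, the 417 regions centred 200 to 300 bp into the gene were detected in a median of 3 libraries with a mean rank score of 12.9. Just inside the 1 kb limit, at 900 to 1000 bp, lay 129 regions and just outside it, at 1000 to 1100 bp, 130, both with a median of 4 libraries. Starts of 2 or more genes in opposite directions lay within reach of 1368 regions (12.0%), here called bidirectional.

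**Figure D1:**
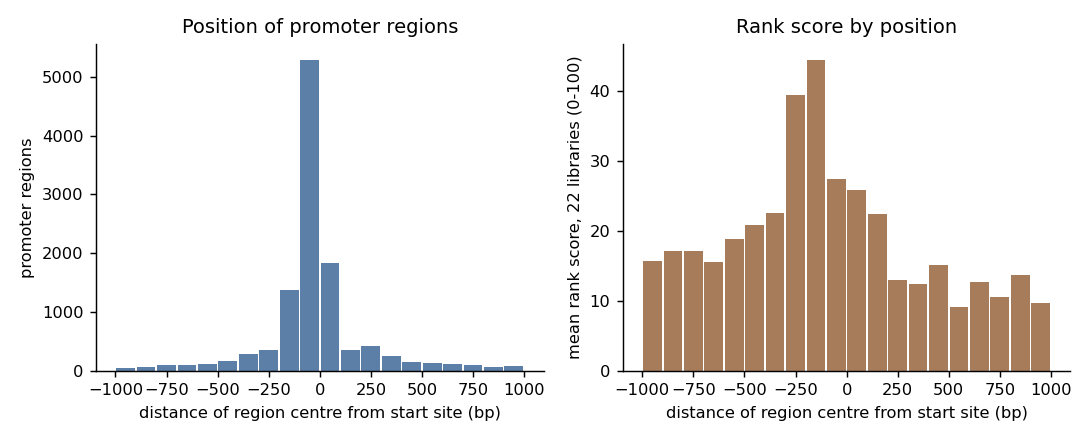
Number of promoter regions (left) and their mean rank score over the 22 libraries (right) by distance of the region's centre from the start site in 100 bp bins, negative upstream. Most centres lie within 100 bp of the start, and the mean rank score is highest, 44.5, from 200 to 100 bp upstream.

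Motif matches were counted on both strands in windows of the width of 1 peak, in promoter regions, in other regions and around all 21938 starts of protein-coding gene records. The GC box GGGCGG was in 62.9% of promoter regions, 7.47% of other regions and 39.8% of all gene starts. The CCAAT box GCCAAT was in 18.0% of promoter regions and 13.8% of gene starts, and in 36.7% of the 1841 promoter regions found in every library. The NRF1 site GCGCATGCG was in 3.21% of promoter regions against 1.91% of gene starts, and the CREB/ATF site TGACGTCA in 3.25% against 2.21%. The AP-1 site TGACTCA was in 3.65% of promoter and 23.7% of other regions, and the PU.1 site GAGGAAGT, of a macrophage lineage factor, in 3.27% and 12.0%, while CREB/ATF was in 0.727% of other regions. CpG-poor promoters differed from CpG-rich ones in the same way, with AP-1 in 14.1% against 1.54% and PU.1 in 11.0% against 1.79%. The C/EBP site TTGCNNAA was in 5.39% of promoter regions and 6.45% of gene starts, the interferon response element core GAAANNGAA in 3.64% and 5.15%, and the TATA box TATAAA in 2.39% and 8.42%. These shares describe letters in a window and carry no test.

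The promoter regions with the highest mean rank score lay near the top of the scale in every library, as their choice by that mean requires. Gm20594 (predicted gene, chromosome 6) had rank scores of 99.8 to 99.9 in every library. Pja2, which encodes a ubiquitin ligase, ranged from 99.3 to 99.8 over the 22 libraries, and Leprot, which encodes a membrane-trafficking protein, from 99.3 to 99.8. Kbtbd8 and Fam160a2 never fell below 98.6.

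Promoters took a smaller share of the strongest 11000 peaks after LPS. In media the promoter share was 53.5%, 57.7% and 72.0% in C57BL6/J animals 1, 4 and 7, and 42.9%, 47.7%, 69.9% and 68.8% in BTBR animals 2, 3, 5 and 8. After LPSx1 it was 39.1%, 42.3%, 50.0% and 53.9% in C57BL6/J animals 1, 4, 6 and 7, and 42.1%, 44.2%, 59.0% and 57.8% in the BTBR animals. After LPSx2 it was 36.1%, 40.8% and 49.8% in C57BL6/J animals 1, 4 and 7, and 42.6%, 45.6%, 53.8% and 50.4% in the BTBR animals. Every animal with a media library had a lower share under both LPS treatments, while the ranges over animals overlapped, and lanes 3 and 4 had higher shares than lanes 1 and 2 in each treatment.

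The mean share was 58.9% ± 11.6 (SD, n = 7) in media, 48.6% ± 7.69 (n = 8) after LPSx1 and 45.6% ± 6.18 (n = 7) after LPSx2. Within lanes the difference from media was -11.2 percentage points for LPSx1 (exact permutation test within lanes, two-sided p = 0.001543, Benjamini-Hochberg adjusted p = 0.006173 over the 8 composition values) and -13.3 points for LPSx2 (exact p = 0.00463, adjusted p = 0.006173). LPSx2 and LPSx1 differed by -2.03 points (exact p = 0.2485, adjusted p = 0.4321), lower in 5 of 7 animals. Both LPS treatments are compared with the same media libraries, so their differences are not independent of each other. The lists were cut to one length, so a lower promoter share means that other regions ranked higher, and a loss of accessibility at promoters cannot be told apart from a gain elsewhere. Kept libraries in lanes 1 and 2 had 6 to 8 additional PCR cycles and those in lanes 3 and 4 had 10 to 13, and the part of the cycles in the share was not tested. The difference was -8.49 points for LPSx1 and -9.14 for LPSx2 in lanes 1 and 2, and -14.4 and -18.9 in lanes 3 and 4. Without regard to lane the differences were -10.3 (adjusted p = 0.1695) and -13.3 (adjusted p = 0.06371), which did not pass. Without the lists with duplicated peaks they were -11.3 and -14.2 (adjusted p = 0.05556 and 0.1111), and the CpG-poor differences described later did not pass either. For LPSx2 the libraries left allowed too few arrangements within lanes for any p under 0.05, so that test could not pass.

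The lists also differed in length before they were cut. After collapsing, the kept lists held 11349 to 63125 peaks in media, 13957 to 112429 after LPSx1 and 15623 to 127242 after LPSx2, and were longer than in media in 6 of 7 animals with LPSx1 and 5 of 7 with LPSx2. The part of list length in the promoter share was not tested. BTBR animal 8, whose lists had 25892 peaks in media and 13957 and 15623 after LPS, had promoter shares of 68.8%, 57.8% and 50.4%. These values of a single animal are given as a description only.

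**Figure D2:**
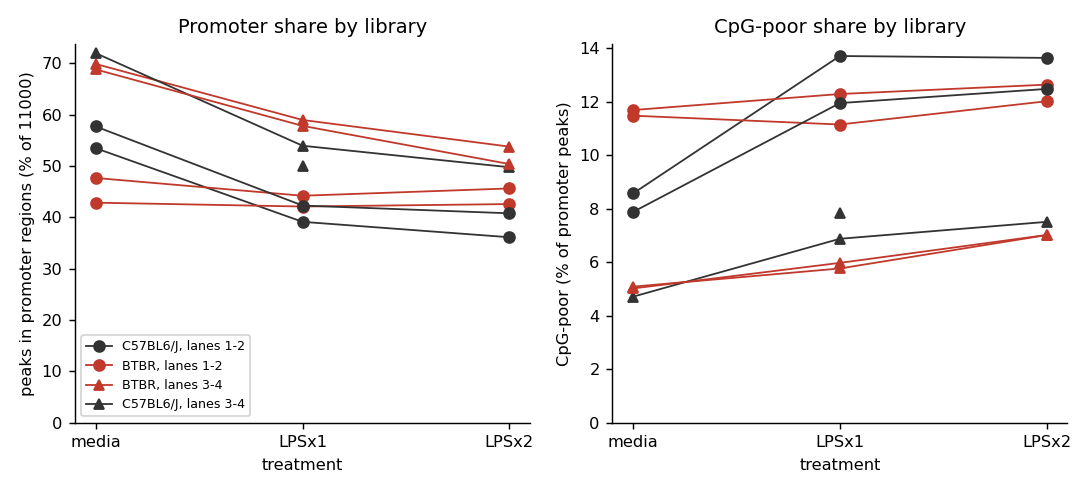
Share of each library's 11000 strongest peaks in promoter regions (left) and share of those promoter peaks that are CpG-poor (right), in percent, by treatment, with lines joining the libraries of an animal, colours for strain and symbols for lanes. The promoter share falls from media to LPS in all 7 animals with a media library, and is higher in lanes 3 and 4; the unjoined point is C57BL6/J animal 6.

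The promoter share fell among the weakest peaks. In the weakest 1100 peaks of each list, the promoter share was 45.8% ± 6.99 (SD, n = 7) in media, 35.2% ± 5.12 (n = 8) after LPSx1 and 33.4% ± 2.46 (n = 7) after LPSx2, lower in 7 of 7 animals under each (within-lane differences of -11.0 and -12.4 points, exact permutation adjusted p = 0.006173 for both). In the strongest 1100 it was 78.6% ± 10.5 in media, 75.9% ± 8.12 after LPSx1 and 72.1% ± 7.98 after LPSx2, which did not pass the test (adjusted p = 0.2809 and 0.1019), and BTBR animals 2 and 3 were higher after LPS. No test of the difference between the strongest and weakest peaks was made. The median rank score over the promoter peaks of each library, which are not the same peaks in every library, was higher by 2.34 points after LPSx1 (adjusted p = 0.02881, higher in 6 of 7 animals, but adjusted p = 0.125 when paired by animal) and by 2.78 after LPSx2 (adjusted p = 0.006173, 7 of 7).

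After LPS a larger share of promoter peaks was CpG-poor. The number of promoter peaks fell in all 7 animals under both treatments, so a larger share need not mean more CpG-poor peaks. The CpG-poor share of promoter peaks was 7.78% ± 3.00 (SD, n = 7) in media, 9.45% ± 3.17 (n = 8) after LPSx1 and 10.3% ± 2.99 (n = 7) after LPSx2. Within lanes it rose by 1.99 percentage points with LPSx1 (adjusted p of the exact permutation test 0.01481, with 6 of 7 animals higher) and by 2.56 with LPSx2 (adjusted p = 0.006173, 7 of 7). Paired by animal, the LPSx1 rise was 1.90 (exact permutation adjusted p = 0.05, at the threshold). Without regard to lane, the rises of 1.67 and 2.56 did not pass (adjusted p = 0.4138 and 0.1896). The CpG-poor share was also lower in lanes 3 and 4 than in lanes 1 and 2 in every treatment. The CpG-rich share was lower in all 7 animals under both, by -3.39 points (adjusted p = 0.00823) and -4.11 points (adjusted p = 0.006173).

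Motif shares of promoter peaks moved by small amounts. Each is a share of the promoter peaks, whose number fell after LPS, so a higher share need not mean more peaks with the motif. The motif tests shuffled libraries within lanes without pairing by animal, and no paired result is given for them. The CCAAT box was in 24.3% ± 2.71 of promoter peaks in media, 26.3% ± 3.21 after LPSx1 and 26.9% ± 2.66 after LPSx2 (SD over 7, 8 and 7 libraries), higher in 7 of 7 animals under both treatments (exact permutation p adjusted over 14 motifs, 0.0216 and 0.01296). Region by region, as described below, 54 promoters with a CCAAT box were called higher and 154 lower with LPSx1, and 68 and 207 with LPSx2. These are 2.91% and 8.31%, beside 2.55% and 11.9% of all tested promoters, and 3.67% and 11.2%, beside 2.75% and 14.5%. The AP-1 site was in 2.64% ± 0.434 in media, 3.41% ± 0.5997 and 3.52% ± 0.601 after LPSx1 and LPSx2, again higher in 7 of 7 animals (adjusted p = 0.0216 and 0.01296). The CREB/ATF site fell in 7 of 7 animals under both, from 3.41% ± 0.265 to 3.13% ± 0.466 and 2.99% ± 0.535 (adjusted p = 0.0216 and 0.01296). The interferon response element core rose in 7 of 7 animals with LPSx1, by 0.325 points (adjusted p = 0.0216), and its difference with LPSx2 was 0.146 points (adjusted p = 0.2052). E-boxes of the type TCACGTG, bound by USF and the lysosomal MiT/TFE factors, fell with both LPS treatments (by 0.475 points, adjusted p = 0.03241, and by 0.773, adjusted p = 0.01296). They were the one motif to pass this unpaired permutation test between LPSx2 and LPSx1 (by -0.269 points, adjusted p = 0.04321, lower in 7 of 7 animals).

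Tested region by region, more promoters fell in rank than rose. Of the 11364 promoter regions, 8852 were detected in at least 3 libraries and were tested with limma among all 19976 such regions, and 2512 were not. With LPSx1, 226 promoter regions were higher and 1056 lower than in media (Benjamini-Hochberg adjusted p under 0.05). Over all regions tested, 7.61% were called higher and 8.28% lower, so promoters at 2.55% and 11.9% had fewer rises and more falls. With LPSx2, 243 promoter regions (2.75%) were higher and 1280 (14.5%) lower, against 8.68% and 9.53% of all regions. The median difference over the tested promoter regions was -5.76 points of rank score with LPSx1 and -7.13 with LPSx2. Of the 1841 promoter regions detected in all libraries, which leave out any region gained or lost, 56 were higher and 58 lower for LPSx1 and 57 and 80 for LPSx2. The counts moved with single animals and settings, while lower calls outnumbered higher ones in each fit run. In lanes 3 and 4 alone the balance was closer, with 476 higher and 610 lower for LPSx1 and 423 and 722 for LPSx2. Without animal 5 there were 139 higher and 519 lower with LPSx1. Leaving out animal 3, 4, 7 or 8 also moved a LPSx1 count by over 1.5 times, to 147 higher without 3, 694 lower without 4, 148 higher and 651 lower without 7, and 690 lower without 8. For LPSx2 the lower calls numbered 753, 793, 773, 799 and 764 without animals 1, 4, 5, 7 and 8.

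Detection alone gave the same direction, but it is not a separate result. It uses the same lists cut to one length, in which a lower promoter share already means fewer promoter peaks. A region was counted as gained when at least 5 animals had it after LPS and not in media and none had the reverse. With LPSx1, 54 promoter regions were gained and 191 lost, against 2.49% and 1.56% of all regions, that is 0.475% and 1.68% of promoter regions. With LPSx2, 61 were gained (0.537%) and 342 lost (3.01%), against 2.64% and 2.02% of all regions.

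The calls were divided unequally among CpG classes. Of 946 CpG-poor promoters tested, 97 (10.3%) were higher and 71 (7.51%) lower with LPSx1, with a median difference of 2.95. Of 5280 CpG-rich promoters, 56 (1.06%) were higher and 734 (13.9%) lower, with a median of -8.25. Intermediate promoters lay between, with 73 higher and 251 lower of 2626 and a median of -3.17. With LPSx2, 98 CpG-poor promoters were higher and 66 lower, 59 CpG-rich were higher and 921 (17.4%) lower, and 86 intermediate were higher and 293 lower. Bidirectional promoters were lower more often than higher too, with 7 higher and 170 lower of 1090 for LPSx1 and 9 higher and 240 (22.02%) lower for LPSx2. No test compares these classes with each other.

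**Figure D3:**
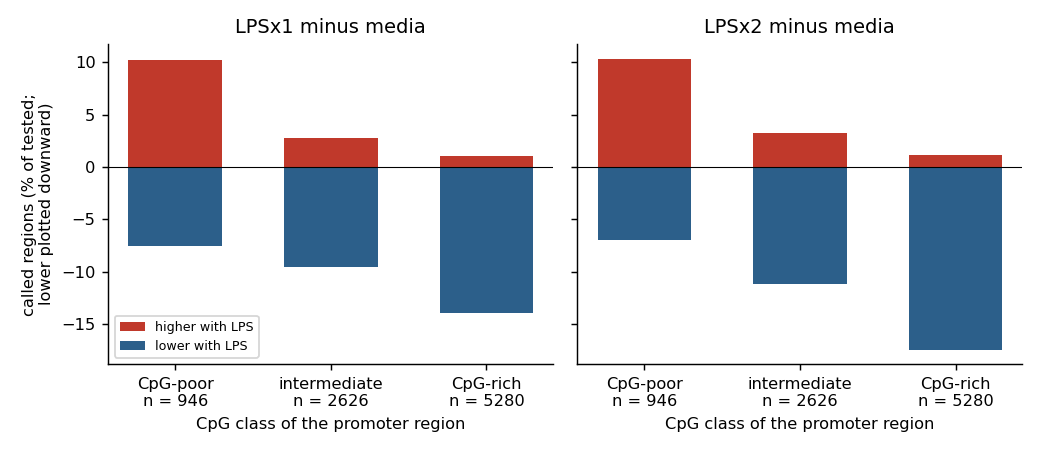
Promoter regions called higher (upward) and lower (downward) than in media by limma, in percent of the tested regions of each CpG class, for LPSx1 and LPSx2. CpG-rich promoters were lower in 13.9% and 17.4% and higher in 1.06% and 1.12% of cases, and CpG-poor promoters were higher in 10.3% and 10.4%.

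The called regions also differed in sequence content. Of the 226 promoters higher with LPSx1, 42.9% were CpG-poor, 15.9% held an AP-1 site and 31.0% a GC box. Of the 1056 lower, 6.72% were CpG-poor, 2.94% held an AP-1 site and 72.9% a GC box. Among the 284 tested promoters with an AP-1 site, 36 were higher and 31 lower with LPSx1 (12.7% and 10.9%, beside 2.55% and 11.9% of all tested promoters), and 25 and 34 with LPSx2 (8.80% and 12.0%, beside 2.75% and 14.5%). None of the 306 with an NRF1 site was higher and 45 (14.7%) were lower with LPSx1, and 3 and 59 (19.3%) with LPSx2. Of the 500 with a TCACGTG E-box, 5 were higher and 78 (15.6%) lower with LPSx1, and 6 and 89 (17.8%) with LPSx2, not far from the shares of all promoters.

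The named promoters are those with the largest differences under a fixed rule. Some lay in an intron of their gene, near the start of an alternative transcript, among them the regions of Slc6a12, Slc31a2, Aatk, Igsf8 and Mef2c. Their values need not hold for the other starts of these genes. The region of Uck2, a uridine-cytidine kinase, lay 895.5 bp inside the gene and was absent from all 7 media libraries. It had rank scores from 74.4 to 96.4 (median 87.2) in the 8 LPSx1 libraries and from 55.3 to 96.5 (median 86.8) in the 7 LPSx2 libraries, with no overlap with media. The difference was 86.7 (SE 7.41, adjusted p = 9.3e-10) for LPSx1 and 84.9 (SE 7.61, adjusted p = 3.82e-09) for LPSx2. Adam3, a gene of the ADAM family best known from sperm, was absent from all media libraries, with 42.4 to 77.1 (median 67.5) after LPSx1 and 69.0 to 94.5 (median 81.4) after LPSx2. Its groups did not overlap with media either, with differences of 65.4 (SE 8.47, adjusted p = 2.74e-06) and 80.3 (SE 8.71, adjusted p = 1.42e-07). The AP-1 site in the Adam3 sequence above lies 71 bp upstream of the start.

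Camp encodes the cathelicidin antimicrobial peptide of neutrophil granules. It was detected in 1 of 7 media libraries at 22.2, in all 8 LPSx1 libraries at 54.0 to 78.1 (median 69.0) and in all 7 LPSx2 libraries at 12.5 to 79.2 (median 65.1), with a small overlap of media and LPSx2. The differences were 65.1 (SE 8.96, adjusted p = 7.42e-06) and 54.5 (SE 9.21, adjusted p = 0.000131). Camp is on the list of neutrophil markers, of which 4 of 14 had a promoter region and 2 were tested. The other tested marker, S100a8, did not pass, with differences of -19.5 (adjusted p = 0.2454) and -6.06 (adjusted p = 0.7463). Tnfsf13b encodes the B-cell survival cytokine BAFF. It was detected in 2 of 7 media libraries at up to 14.9, and at 5.67 to 88.6 (median 75.01) after LPSx1 and 65.1 to 80.4 (median 68.8) after LPSx2 (differences of 63.9 and 69.1, adjusted p = 3.45e-05 and 1.68e-05).

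Slc6a12 and Slc31a2 encode transporters. Slc6a12, a betaine and GABA transporter, was at 0 to 12.4 (median 0) in media, 53.5 to 78.0 (median 69.2) after LPSx1 and 14.8 to 89.4 (median 74.7) after LPSx2, with no overlap (differences of 65.3 and 65.2). Slc31a2, a copper transporter family member, was at 0 to 22.01 (median 0) in media, 0 to 86.6 (median 74.4) after LPSx1 and 12.5 to 92.7 (median 83.0) after LPSx2 (differences of 58.6 and 68.3, adjusted p = 0.000223 and 4.72e-05). Pax6, known as an eye development factor, rose from 0 to 42.9 (median 11.1) in media to medians of 87.6 and 85.5. Zfp938 and Map9 were also named by the rule as risers, with differences of 62.5 and 44.5 for LPSx1 and 59.6 and 70.3 for LPSx2.

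Hsd11b1, the enzyme that regenerates active glucocorticoid, rose under both treatments. It was detected in 1 of 7 media libraries at 1.77, in 6 of 8 LPSx1 libraries at up to 73.0 (median 27.3), and in all LPSx2 libraries at 60.6 to 84.4 (median 73.2). The difference from media was 28.9 (SE 9.43, adjusted p = 0.0344) for LPSx1 and 73.8 (SE 9.70, adjusted p = 3.63e-06) for LPSx2. The difference between LPSx2 and LPSx1 of 44.9 did not pass the test (adjusted p = 0.196).

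Among the promoters that fell, Aatk, a neuronal kinase gene, went from 69.5 to 85.6 (median 78.5) in all 7 media libraries to absence in all 8 LPSx1 libraries, and was detected in 2 of 7 LPSx2 libraries (differences of -76.2, SE 10.4, adjusted p = 6.38e-06, and -59.4, SE 10.7, adjusted p = 0.000277). Igsf8, an immunoglobulin superfamily membrane protein, went from 54.7 to 90.5 (median 87.5) to 0 to 25.3 (median 6.61) after LPSx1 and 0 to 48.9 (median 42.4) after LPSx2, with no overlap. Jund, an AP-1 subunit, was at 24.9 to 98.4 (median 87.5) in media and undetected in 5 of 8 LPSx1 and 4 of 7 LPSx2 libraries, with up to 58.4 and 50.7 in the rest. The lowest media library of Jund lay among the LPS libraries, and the differences were -62.1 (SE 10.2, adjusted p = 8.94e-05) and -68.4 (SE 10.5, adjusted p = 3.73e-05).

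Hexa, Ubap1 and Cltc also passed as lower, and their media and LPSx2 libraries overlapped in part. Hexa, a lysosomal hexosaminidase, went from 29.3 to 88.3 (median 77.0) to detection in 1 of 8 LPSx1 and 3 of 7 LPSx2 libraries (differences of -66.0 and -62.6). Ubap1, a component of the ESCRT-I sorting complex, and Cltc, the clathrin heavy chain, fell by 63.3 and 50.4 with LPSx1 and by 63.1 and 64.4 with LPSx2.

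Kinases and transcription factors were also named by the rule. Map3k8, a kinase of the LPS pathway, went from 59.0 to 95.6 (median 81.4) in media to medians of 9.31 and 3.48 (differences of -64.3 and -63.2). Braf, a RAF kinase, went from 57.7 to 89.6 (median 68.8) to medians of 7.51 and 0, with no overlap (differences of -59.4 and -69.1, adjusted p = 0.000126 and 2.53e-05). Mef2c, a transcription factor of the myeloid and muscle lineages, went from 43.9 to 95.0 (median 88.2) to medians of 11.0 and 0, with LPSx2 libraries at no more than 6.46 (differences of -58.4 and -76.4). Zfp36l2, which promotes mRNA decay, fell from 89.8 to 98.1 in media to no more than 79.6 after LPSx1 and 76.6 after LPSx2. Kat7, a histone acetyltransferase, and Erbin fell by 47.8 and 40.3 with LPSx1 and by 67.05 and 65.5 with LPSx2.

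The calls of the regions with the largest differences, 8 per treatment and direction, passed in each of the 8 fits that left out 1 animal. They were chosen from these same animals for large differences of one sign, so that outcome was largely set by the choice. In lanes 3 and 4 alone, the LPSx1 calls of Slc6a12, Tnfsf13b, Ubap1 and Jund and the LPSx2 calls of Slc31a2, Slc6a12, Kat7, Cltc and Ubap1 did not pass (limma, adjusted p from 0.05088 to 0.09203). Without the lists with duplicated peaks, the LPSx1 call of Jund and the LPSx2 calls of Slc31a2, Kat7 and Cltc did not pass (adjusted p from 0.0505 to 0.06048). On detection alone, Pax6 and Map3k8 under both treatments, Igsf8 and Zfp36l2 under LPSx1, and Braf, Jund, Kat7, Erbin and Cltc under LPSx2 did not pass.

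**Figure D4:**
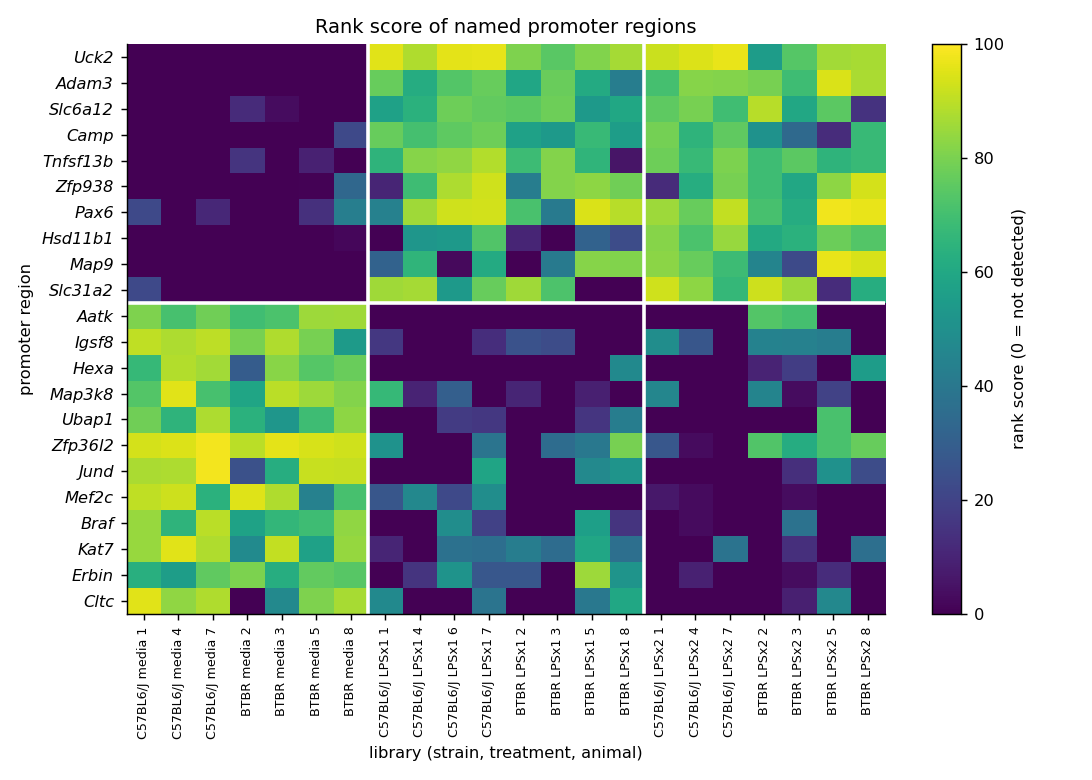
Rank score (colour, 0 for not detected) of the promoter regions described for LPSx1 or LPSx2 in each of the 22 libraries, with risers above the white line and fallers below. Uck2 and Adam3 are at 0 in all media libraries, and Aatk is at 0 in all LPSx1 libraries.

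Some gene lists had lower calls and no higher ones, which is to be read beside all tested promoters, where 2.55% were higher and 11.9% lower with LPSx1 and 2.75% and 14.5% with LPSx2. Of 60 tested promoters of cytosolic ribosomal proteins, none was higher and 9 were lower with LPSx1, with 0 and 19 for LPSx2 and median differences of -10.0 and -15.7. Of 35 of splicing factors, 9 and 12 were lower and none higher (medians -16.1 and -21.8). Of 31 of RNA polymerase II and general factors, 7 and 8 were lower and none higher (medians -13.3 and -16.0), among them Polr2a, the largest subunit (differences of -57.2 and -47.6). Of 26 of chromatin modifiers, 9 and 7 were lower and none higher (medians -17.3 and -19.3), among them the bromodomain gene Brd2 (differences of -40.9 and -50.3). Lists of 36 mitochondrial complex I and ATP synthase genes (6 and 7 lower), 25 proteasome subunits (1 and 4), 23 lysosome genes (3 and 3) and 26 cell cycle genes (2 and 1) had no member higher. For lists of this size the absence of higher calls is near the share of all promoters, and the lower calls of the ribosomal (LPSx1), proteasome, lysosome and cell cycle lists are near or below it. These medians stand beside -5.76 and -7.13 for all tested promoters.

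The list of AP-1, ATF and immediate early factors had a larger share of lower calls with LPSx1 than all promoters, untested as a list. Of 19 tested promoters of AP-1, ATF and immediate early factors, 9 were lower with LPSx1 and 5 with LPSx2, and none higher (medians -18.7 and -16.1). Over all promoters 11.9% and 14.5% were lower and 2.55% and 2.75% higher, which the other lists here stand beside too. Klf4, a stimulus-induced factor, fell by 50.9 and 53.4, and Fosl2, Jun, Atf3 and Egr2 by 36.4, 28.4, 25.9 and 25.5 with LPSx1. Of 21 genes of the LPS sensing pathway, Ikbkb, which encodes a kinase that activates NF-kB, was higher by 42.9 and 37.0, and the adaptor gene Tirap and the kinase gene Irak2 by 40.7 and 32.6 with LPSx2, while Tab1 fell by 14.7 with each. Of 19 of NF-kB subunits and regulators, 3 were higher (Nfkb1, which encodes the p50 precursor, Tnip3 and the ubiquitin ligase gene Birc3) and 3 lower with LPSx1 (Nfkbiz and Tnfaip3, both feedback regulators, and Sqstm1), and 3 were higher and 4 lower with LPSx2. Birc3 was at 0 to 91.9 (median 70.4) in media and 88.0 to 96.7 after LPSx1.

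Cytokine promoters were few among the regions. Of 33 annotated inflammatory cytokine and chemokine genes, 14 had a promoter region and 7 were tested. The calls stand beside 2.55% higher and 11.9% lower over all tested promoters with LPSx1, and 2.75% and 14.5% with LPSx2. Ccl2 and Ccl3 were lower with LPSx1, and with LPSx2 Cxcl2 was higher and Ccl3 lower. Of 15 inflammatory mediators tested, Adam8 and Socs3 were higher and the phosphatase genes Dusp1 and Dusp4 lower with LPSx1. Socs3, a feedback inhibitor of cytokine signalling, went from 0 to 11.1 in media to 8.72 to 76.6 after LPSx1 and 1.84 to 92.04 after LPSx2 (differences of 45.1, adjusted p = 0.004, and 52.4, adjusted p = 0.0013).

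Interferon-stimulated genes had a median difference above 0. Of 30 tested, 5 were higher and 3 lower with LPSx1, and 2 higher (Trim21 and Herc6) and 2 lower with LPSx2, with medians of 5.68 and 2.39. Over all tested promoters, 2.55% were higher and 11.9% lower with LPSx1, and 2.75% and 14.5% with LPSx2. Herc6, a ubiquitin ligase family gene, rose by 41.0 and 40.5, and Xaf1 and the RNA-sensing synthetase gene Oas2 by 26.4 and 24.0 with LPSx1. The guanylate-binding protein genes went both ways with LPSx1, with Gbp2 higher by 27.0 and Gbp3 and Gbp7 at -35.0 and -41.0, and these genes are close relatives, so reads could be shared among them. Of 14 antigen presentation genes, the peptidase gene Erap1 was higher and the MHC class I gene H2-D1 and the peptide transporter gene Tap1 lower with LPSx1, and H2-D1 differed by -53.0 and -45.2. H2-D1 has close relatives in the same gene family, so reads could be shared among them.

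Metabolic lists were mixed with LPSx1, where 2.55% of all tested promoters were higher and 11.9% lower. Of 19 cholesterol and lipid genes, Insig1, the sterol-dependent retention factor of SREBP, rose from 65.1 to 86.4 in media to 86.6 to 94.8 after LPSx1 (difference of 18.7), with no overlap, while Srebf2, Fasn, Mylip, Lpcat3 and Fads1 were lower. Of 24 glycolysis genes, Pfkfb3, which makes the activator of phosphofructokinase, was higher and Aldoa and Pgam1 lower. Oxidative stress genes had 1 higher and 1 lower of 22 with LPSx1.

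Promoter regions were found for most macrophage identity genes, though seldom in every library. Of 30 macrophage identity genes, 28 (93.3%) had a promoter region in any library, and 26 were tested. By each gene's most often detected region, 2 were in all 22 libraries and the median was 9 libraries. The list of splicing factors had a promoter region for 90.2% of its genes. With LPSx1 the promoters of Cd68, Cebpa, Tyrobp, Cd63 and Trem2 were lower and none was higher (median -7.03), and with LPSx2 the Fc receptor gene Fcgr3 was higher and 5 were lower (median -5.996). Over all tested promoters, 11.9% were lower and 2.55% higher with LPSx1, and 14.5% and 2.75% with LPSx2. Promoter regions were found for 4 of 17 T-cell and NK-cell markers, 4 of 14 neutrophil, 2 of 11 dendritic-cell, 2 of 11 erythroid and megakaryocyte, 0 of 11 B-cell and 0 of 15 stromal markers.

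No promoter region passed the test between LPSx2 and LPSx1. With limma the share called was 0% of all regions tested and 0 of 8852 promoters, with 462 promoters at an unadjusted p under 0.05. A fit to detection alone called 4, and the fit without animal 7 called 5. By detection in at least 5 animals, 3 promoter regions were gained and 9 lost, against 0.0705% and 0.057% of all regions. The promoters with the smallest p were Hsd11b1, Klf3, Tbc1d4 and Alyref2 on the higher side and Ippk, Rragc, Cdc20 and Adipor2 on the lower side. Ippk, an inositol phosphate kinase, was at 75.01 to 90.7 in media, 43.5 to 89.0 (median 75.2) after LPSx1 and 0 to 67.3 (median 32.3) after LPSx2 (difference of -40.7, adjusted p = 0.196). Klf3, a repressor, was at 75.1 to 97.5 in media, 0 to 73.8 (median 57.8) after LPSx1 and 74.7 to 95.3 (median 84.0) after LPSx2, where LPSx2 lay above LPSx1 without overlap (difference of 32.4, adjusted p = 0.224).

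Strains differed at few promoters. The share of peaks in promoters did not pass the test between BTBR and C57BL6/J (difference of 1.84 percentage points, exact permutation over animals, p = 0.7429). Of 8852 promoters, 67 were higher and 132 lower in BTBR (limma with animal as a correlated block, adjusted p under 0.05), 2.25% against 3.78% of all regions tested. With 1 value per animal, 8 were higher and 2 lower, and with a lane term as well 43 passed, so the count depends on how the libraries of an animal are treated. It was 119 to 125 without animal 2, 3 or 4, 555 without animal 7 and 476 without animal 8. Which direction had more calls also depended on the fit. Higher and lower calls numbered 284 and 271 without animal 7, 263 and 213 without animal 8, and 157 and 51 in lanes 3 and 4 alone. Lower calls were more numerous without animal 1, 2, 3, 4, 5 or 6.

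The 3 largest strain differences, and a smaller one at Gm10719, lay in a cluster of predicted genes on chromosome 9. The Gm10717 region was absent from all 10 C57BL6/J libraries and at 96.8 to 99.8 in all 12 BTBR libraries (difference of 99.2, SE 6.10, adjusted p = 4.53e-13). Gm11168, Gm10718 and Gm10719 lie in the same cluster, with differences of 87.5, 78.0 and 60.4. The central 51 letters of the regions occur 5 times in the genome for Gm10717, 5 for Gm10718 and 17 for Gm10719, so which copy the reads came from is uncertain there, and once for Gm11168. H2-Q7, a non-classical MHC class I gene with 3 copies of its central letters, differed by 72.1, and Platr25, with 2 copies, by 70.2.

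Regions whose central 51 letters occur once in the mm10 genome also separated the strains. Differences of the BTBR sequence from that genome were not tested. Zmym5, a zinc finger gene, was at 75.4 to 95.5 in all 12 BTBR libraries and absent from 8 of 10 C57BL6/J libraries, with 68.2 and 49.1 in the rest (difference of 73.6, SE 7.62, adjusted p = 5.37e-08). Lyplal1, a lysophospholipase-like gene, was higher in BTBR by 58.2 (SE 7.60, adjusted p = 3.62e-06). Ifi204, a DNA sensor of the interferon-inducible PYHIN family, was absent from all 12 BTBR libraries and at 38.7 to 86.8 in all 10 C57BL6/J libraries (difference of -65.2, SE 7.07, adjusted p = 1.36e-07). Tmtc2 was also absent from all BTBR libraries and lower by 59.1 (adjusted p = 3.06e-06). Eef2kmt, which methylates an elongation factor, and Dnajb9, an ER chaperone, were lower by 64.4 and 63.7, and Ankrd27, Faim, Eif3j1 and Cetn4 by 56.3 to 58.5. With 1 value per animal, Gm10719, Lyplal1, Eef2kmt, Dnajb9, Tmtc2, Faim, Eif3j1 and Cetn4 no longer passed, with an adjusted p of 0.0528 for Eef2kmt and 0.0519 for Tmtc2. On detection alone, Lyplal1, Ankrd27, Faim and Eif3j1 did not pass.

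**Figure D5:**
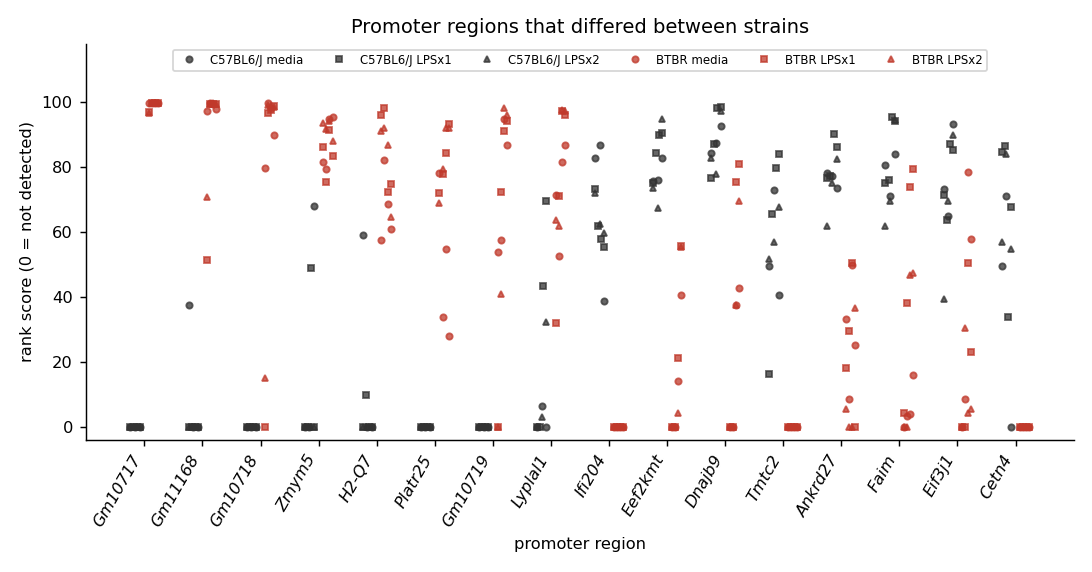
Rank score in each library of the promoter regions named for the strain comparison, with C57BL6/J and BTBR side by side and symbols for treatment. Gm10717 is at 0 in all C57BL6/J and above 96 in all BTBR libraries, and Ifi204 is at 0 in all BTBR libraries.

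The response to LPS was compared between strains. The promoter share fell by 15.9 points on average in C57BL6/J (range -18.0 to -14.3 over 3 animals) and by 6.53 in BTBR (range -11.0 to -0.755 over 4) with LPSx1, and the difference did not pass (exact permutation p = 0.08571, adjusted p = 0.1143). For LPSx2 the values were -18.8 and -9.21 (exact p = 0.2286). The rise of the CpG-poor share was 3.79 points in C57BL6/J and 0.474 in BTBR with LPSx1, and 4.16 and 1.35 with LPSx2 (exact permutation p = 0.02857 for each, the smallest that these numbers of animals allow, adjusted p = 0.05714). At 4 promoters for LPSx1 and 4 for LPSx2 of 8852 the response differed by strain in limma, beside 0.035% called over all 19976 regions in each case. When detection in at least 8 libraries was required, 0 and 0 were called. With animal as a replicate block these counts were 0 and 2. Among them, C1qb, a subunit of complement C1q, was at 94.0, 78.7 and 84.5 in C57BL6/J media and absent from all BTBR media libraries. It met the minimum of 3 libraries through those C57BL6/J media libraries. It is named after its values were seen.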

How the data were processed

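ATAC-seq peak lists of 24 libraries were used, 1 per animal and treatment. Per the submitters' processing notes, the authors used Trimmomatic 0.38, SAMtools 1.8, Picard 2.18.4, HOMER and bedtools with the mm10 build; the aligner is not given in the sources used here. The deposited score of each peak, as the authors' peak caller gave it, was used to rank peaks within a list. In 7 lists, 66.7% to 87.4% of peaks overlapped another, so peaks were collapsed. Every list of C57BL6/J animal 1 was among these 7. BTBR animal 3 and C57BL6/J animal 4 gave the rest, and for both only LPSx1 was free of such overlap. No list from lane 3 or 4 was affected. The duplicated lists were thus spread unevenly over treatments, strains and lanes. Of the lists under the 5000 minimum, C57BL6/J animal 6 media had 299 peaks and LPSx2 had 1879. Read depth is unknown, and list lengths are its only trace.

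Starts are those of protein-coding transcripts of GENCODE vM21 (GRCm38.p6). Rank scores were fitted with limma 3.58.1 (R 4.3.3) in 6 groups with lane as covariate, with Benjamini-Hochberg adjustment over 19976 regions and a threshold of 0.05. The strain test used the consensus correlation within animals (-0.0323). Shares per library were compared with exact two-sided permutation tests within lanes, and the fits were tested on simulated data. Library deviations of the same animal had a median correlation of 0.327 (range -0.00218 to 0.644, 21 pairs) and libraries of other animals of the same lane 0.308. Treatments are paired by animal if libraries with the same replicate number come from 1 animal, as was assumed here.

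The named regions are, per comparison and direction, the 8 with the largest difference among those that passed and had that sign in at least 6 of 7 animals (strains: animal means without overlap), or the 4 with the smallest p where fewer than 4 passed, with the 6 highest mean rank scores and list members that passed. Some regions the rule names are not reported here. Members, 25 gene lists and tests were chosen with earlier results of these data known. Sequences are from the GRCm38.p6 genome, whose chromosomes are those of mm10.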

Additional observations from a re-analysis of the deposited data

Results flagged for a closer look

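At 6 promoter regions the response to LPS differed between the strains (limma interaction, Benjamini-Hochberg adjusted p under 0.05), and all were picked after their values were seen. Positive values mean that the change was more upward in BTBR. C1qb, a complement C1q subunit, was at 94.0, 78.7 and 84.5 in the media libraries of C57BL6/J animals 1, 4 and 7, at 21.7 in 1 C57BL6/J LPSx1 library, and absent elsewhere. The strain difference in response was 79.86 for LPSx1 and 85.74 for LPSx2. The region met the minimum of 3 libraries through its C57BL6/J media libraries, so these values are a description.

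Srrm1, a splicing coactivator, was at 78.3, 77.5 and 68.1 in C57BL6/J media and at 0 in 3 of 4 BTBR media libraries, with differences of 77.19 (LPSx1) and 89.95 (LPSx2). Gas2l1 was at 63.2, 58.2 and 47.1 in C57BL6/J media and absent from BTBR media (62.62 for LPSx1). BC005537, centred at -490 bp from its start, was at 80.6, 91.6 and 51.6 in C57BL6/J media (81.94 for LPSx1), and Mtus1 at 82.7, 89.9 and 56.9 (76.48 for LPSx2). In these 5 regions, detected in 4 to 7 libraries, the 3 C57BL6/J media libraries stood apart and by themselves met the minimum of 3 libraries, so these values are given as a description. With at least 8 libraries required, 0 promoter regions were called for either treatment.

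Stag3, a meiotic cohesin subunit whose start lies beside that of Gpc2, had another pattern. Its BTBR libraries were at 0 to 31.0 in media and 69.0 to 82.4 after LPSx2, while all 3 C57BL6/J LPSx2 libraries were at 0 (100.5 for LPSx2, adjusted p = 0.0486). With animal as a replicate block 0 regions were called for LPSx1 and 2 for LPSx2. Among 32 groups of 4 libraries tested for a single sample far from the rest, none was found.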

How the results depend on the processing

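With 5500 peaks per list, 141 promoter regions were higher and 421 lower with LPSx1, 142 and 454 with LPSx2, 119 differed by strain, and the response differed by strain at 0 and 0 (LPSx1 and LPSx2). Lists as deposited gave 399 lower with LPSx1, 125 higher and 563 lower with LPSx2, 114 by strain, and 1 and 1. Without the lists with duplicated peaks the values were 431 lower with LPSx1, 111 and 306 with LPSx2, 406 by strain, 2 and 0, promoter share differences of -11.3 (adjusted p = 0.05556) and -14.2 (0.1111), and CpG-poor share differences of 1.35 (0.07407) and 1.92 (0.1111). The LPSx2 permutation tests among these could not pass, for too few arrangements were left. Without lane the values were 105 and 387, 112 and 535, 46 by strain, 1 and 2, promoter share -10.3 and -13.3, and CpG-poor share 1.67 and 2.56. Detection in place of rank score gave 78 and 387, 80 and 532, 4 for LPSx2 against LPSx1, 88 by strain, 14 and 16.

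At least 8 libraries left 0 and 0 strain differences in response, and no minimum gave 147 and 645, 159 and 812, and 7 for LPSx1. Lanes 1 and 2 alone gave 423 lower with LPSx1, 141 and 448 with LPSx2, 410 by strain, 0 and 0. Lanes 3 and 4 alone gave 476 and 610, 423 and 722, and 0 for LPSx2, so that 56.2% and 63.1% of calls were lower, against 82.4% and 84.0%. With 1 value per animal, a setting chosen after seeing the data, 10 differed by strain, and 43 with lane. The causes were not tested.

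With animal as a replicate block, 181 were higher and 721 lower with LPSx1 and 240 and 1174 with LPSx2, with 0 and 2 strain differences in response and a CpG-poor share difference of 1.90 (adjusted p = 0.05) for LPSx1. The block also ended the call of the median rank score of promoter peaks with LPSx1 (exact permutation by animal, adjusted p = 0.125). Of the 1282 promoter regions called with LPSx1 in the main fit, 878 were called with the block, and 1366 of 1523 with LPSx2. No refit with the block is given for the motif shares.

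Leaving out each animal in turn gave 139 to 246 higher and 519 to 1061 lower with LPSx1, 163 to 278 and 753 to 1429 with LPSx2, 0 to 5 for LPSx2 against LPSx1, 119 to 555 by strain, and 0 to 1 and 0 to 5 for the strain difference in response. The promoter share difference was -12.8 to -10.1 (LPSx1), -15.5 to -11.8 (LPSx2), -2.77 to -1.20 (LPSx2 against LPSx1) and -1.08 to 4.90 (strain). The calls of the 8 regions per treatment and direction with the largest differences held in all 8 of these fits, which their choice from the same animals largely sets.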

Other observations

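The lists left out for their length can still be placed on the promoter regions. The media list of C57BL6/J animal 6 had 28 of 299 peaks (9.37%, 95% Wilson interval 6.56 to 13.2) in promoter regions and 80.9% in any region. Its LPSx2 list had 1172 of 1877 peaks (62.4%, interval 60.2 to 64.6) in promoter regions and 96.6% in any region. Intervals cover counting error only, and these libraries entered no comparison.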
